A study of Mus musculus with 16 samples.

Results

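The genes of major histocompatibility complex (MHC) class I antigen presentation were followed in ear skin of ageing mice. The set was chosen by name and not by any measured value, and it held 10 genes (B2m, H2-K1, H2-D1, H2-T23, Tap1, Tap2, Tapbp, Erap1, Nlrc5 and Calr) of the 45706 gene identifiers counted. All 10 were among the 21526 genes that passed the filter on low counts. The 16 RNA-seq libraries come from 8 male mice of the inbred strain C57Bl/6J, each of which gave a biopsy of its first ear when 24 months old and of its other ear when 30 months old. Each age thus has 8 libraries, paired by animal. By the labels the animals were 23.8 to 24.4 months old at the earlier biopsy, the later one falling at 29.0 to 30.1 months. The labels name no treatment, engineered allele or batch for either age. Age and the ear that was clipped cannot be told apart in this design. The comparison asks which genes differ between the ages within the same individual. Mice go by the numbers in their sample titles (13, 14, 21, 29, 43, 50, 64 and 75).

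Class I molecules stand on the surface of almost all nucleated cells and show short peptides from the cell's own proteins to CD8 T cells. A heavy chain pairs with β2-microglobulin, peptides cut by the proteasome are pumped into the endoplasmic reticulum by the TAP transporter, and a loading complex with tapasin and calreticulin helps the heavy chain to hold a fitting peptide. The genes for most of these parts share promoter elements and a nuclear activator, NLRC5, and interferon gamma is their best known inducer. In skin, keratinocytes, fibroblasts, endothelial cells and resident immune cells all carry class I.

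The depth was 27494852 to 35527197 reads counted on genes per library at 24 months and 22967222 to 36162431 at 30 months. Levels are given as CPM (counts of a gene relative to the library total) scaled with TMM factors, which lay between 0.957 and 1.04. No member had fewer than 629 counts in any library (Erap1), and the highest count was 74190 (B2m). The label of the tissue was checked against markers of skin. Krt14, a keratin of basal keratinocytes, had 4365 ± 319 CPM (mean ± SD, n = 8) at 24 months and 4439 ± 1239 at 30 months, and 9 of 10 keratinocyte markers and 6 of 6 fibroblast markers passed the filter. Cartilage and skeletal muscle markers were also counted in the libraries. In bulk tissue, a change in the number of cells that carry a transcript and a change of the transcript per cell cannot be told apart.

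Of the 10 genes, 6 lie on chromosome 17, which carries the mouse MHC (all positions in GRCm38, from GENCODE M21). The classical heavy chains H2-K1 (ENSMUSG00000061232) and H2-D1 (ENSMUSG00000073411) span chr17:33996017-34000347 on the minus strand and chr17:35262730-35267499 on the plus strand. H2-T23 (ENSMUSG00000067212), the heavy chain of the non-classical molecule Qa-1, spans chr17:36029773-36032855 on the minus strand. The transporter genes Tap1 (ENSMUSG00000037321) and Tap2 (ENSMUSG00000024339) neighbour each other at chr17:34187553-34197225 and chr17:34203527-34216321, both on the plus strand. Tapbp (ENSMUSG00000024308), the gene of tapasin, spans chr17:33915899-33929292 on the plus strand. B2m (ENSMUSG00000060802) lies outside the MHC at chr2:122147686-122153083 on the plus strand, and Erap1 (ENSMUSG00000021583), the gene of the aminopeptidase that trims peptides, at chr13:74639568-74693201 on the plus strand. Nlrc5 (ENSMUSG00000074151) and the calreticulin gene Calr (ENSMUSG00000003814) are both on chromosome 8, at chr8:94434356-94527272 on the plus strand and chr8:84841850-84846934 on the minus strand.

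The bases upstream of 4 members are shown to set 3 genes that varied widely between mice (B2m, H2-K1 and Tap1) beside the one that varied least (Calr). They are RefSeq promoter windows in GRCm38.p6, read 5′ to 3′ on the strand of the gene and printed up to the first annotated exon, at chr2:122147437-122147685 for B2m, chr17:34000348-34000597 for H2-K1, chr17:34187306-34187552 for Tap1 and chr8:84846935-84847181 for Calr. Capitals mark motif matches.
B2m: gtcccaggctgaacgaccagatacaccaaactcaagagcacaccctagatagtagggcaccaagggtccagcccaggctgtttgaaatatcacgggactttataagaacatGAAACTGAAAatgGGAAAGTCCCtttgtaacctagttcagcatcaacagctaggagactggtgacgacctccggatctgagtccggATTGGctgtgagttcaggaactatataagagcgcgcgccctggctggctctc
H2-K1: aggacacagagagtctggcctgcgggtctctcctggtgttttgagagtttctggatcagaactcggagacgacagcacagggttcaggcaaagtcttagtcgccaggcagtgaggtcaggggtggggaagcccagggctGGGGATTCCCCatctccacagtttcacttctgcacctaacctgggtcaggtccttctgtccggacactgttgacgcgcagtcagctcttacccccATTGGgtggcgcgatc
Tap1: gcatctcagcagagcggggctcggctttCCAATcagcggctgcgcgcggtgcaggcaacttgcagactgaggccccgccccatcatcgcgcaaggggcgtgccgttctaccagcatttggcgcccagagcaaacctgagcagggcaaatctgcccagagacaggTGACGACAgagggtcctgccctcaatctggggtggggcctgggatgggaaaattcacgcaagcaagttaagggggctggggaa
Calr: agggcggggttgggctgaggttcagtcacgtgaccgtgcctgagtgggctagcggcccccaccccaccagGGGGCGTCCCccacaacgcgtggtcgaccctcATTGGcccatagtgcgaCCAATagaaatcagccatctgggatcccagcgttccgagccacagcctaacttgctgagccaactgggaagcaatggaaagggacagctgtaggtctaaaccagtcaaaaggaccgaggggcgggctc

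Both strands of the 250 bases before the RefSeq start were searched for 4 motifs, and 8 of the 10 members had a window (Tap2 and Nlrc5 had none). For H2-K1, which had 2 windows, the first was used. The RefSeq start can differ from that of GENCODE: the windows of H2-D1, Tapbp and Erap1 lie within the gene spans given above. The window of H2-T23 lies partly within its span. The core of the interferon-stimulated response element, a pair of GAAA runs with NN between, was found in 2 of 8 members (B2m and H2-T23) and in 2.98% of all 32851 windows. In B2m it stands at positions -139 to -130 from the start, shortly before a match to the NF-kB consensus at -126 to -117. The NF-kB consensus was found in 4 of 8 members and in 7.25% of all windows. The CCAAT box, CCAAT or ATTGG on the other strand, was found in 7 of 8 members and in 33.8% of all windows, and the X2 box core, TGACGNNA, in 1 of 8 members (Tap1) and in 5.66% of all windows. Only exact matches to these letters were counted, so a window without a match can still hold a variant of the element. These matches are a description of letters and not of binding.

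The 2 classical heavy chain genes share much of their sequence. The 30 bases around the NF-kB match are shown for both, at chr17:34000439-34000468 (minus strand) and chr17:35262913-35262942 (plus strand), with the 2 overlapping matches in capitals, and for H2-T23 the 30 bases around its response element core, which reads on the opposite strand, at chr17:36032806-36032835 (minus strand).
H2-K1: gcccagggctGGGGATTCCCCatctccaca
H2-D1: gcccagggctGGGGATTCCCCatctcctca
H2-T23: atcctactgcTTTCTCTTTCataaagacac

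At the best ungapped offset, 166 of 190 bases (87.4%) of the H2-K1 and H2-D1 windows were identical. The longest run common to the coding sequences is 91 bases (positions 738 to 828 of 1107 in H2-K1 and 747 to 837 of 1086 in H2-D1), longer than the 50-base reads, and it is printed because reads that fall wholly in it cannot be assigned to either gene.
Shared run: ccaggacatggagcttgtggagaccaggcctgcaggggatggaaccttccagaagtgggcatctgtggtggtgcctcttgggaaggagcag

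Over whole transcripts, 6.87% of the 50-base words of H2-K1, 13.9% of those of H2-D1 and 29.8% of those of H2-T23 occur in another gene, whereas none of those of B2m and Nlrc5 and 0.468% of those of Calr do. The remaining members share words with a gene on the opposite strand or a neighbour, at 6.27% for Tap1, 12.1% for Tap2, 13.7% for Erap1 and 22.4% for Tapbp. The library kit does not mark strand, so reads from Erap1 and its overlapping neighbour Cast, which had 106222 counts over all libraries against 14237 for Erap1, cannot be told apart where they overlap. The same holds for Tap1 and Psmb9 (54558 and 12967 counts).

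Levels per length were compared as RPKM, with the union of annotated exons as length. B2m stood highest, with a median of 815 RPKM over the 16 libraries (range 474 to 2717). It was followed by H2-K1 (235, range 126 to 736) and H2-D1 (194, range 132 to 613), whose ranges overlap, and by Calr (114, range 90.0 to 135). Tapbp (34.7, range 30.9 to 74.9) and H2-T23 (30.2, range 24.1 to 109) were next and overlapped too. The lowest levels were those of Tap1 (17.8, range 11.9 to 59.2), Tap2 (10.3, range 7.85 to 23.8), Nlrc5 (8.17, range 3.95 to 27.4) and Erap1 (3.93, range 3.26 to 8.47). By this measure the median of the small light chain was several times that of each heavy chain. The activator and the trimming enzyme stood at a few RPKM. The ratio of light to heavy chain depends on the lengths used, 860 bases for B2m, 2938 for H2-K1 and 2579 for H2-D1. In CPM at 24 months their means were 628, 617 and 464.

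No member passed the test between the ages, and the largest differences were those of 2 mice. In mice 21 and 50 the heavy chains, B2m, the transporter genes and Nlrc5 were all higher at 30 months, in mouse 43 they were lower, and in the other 5 mice the changes of these genes were smaller than those of mice 21 and 50, the widest being 0.70 for Tap2 in mouse 29. At an adjusted p under 0.05 (edgeR's quasi-likelihood test, mouse as a block, Benjamini-Hochberg over all genes tested), 0 of 10 members and 0.0% of the 21526 genes were called. At an unadjusted p under 0.05, 1 of 10 members (Tap2) was higher at 30 months, beside 4.86% of all genes, and 0 were lower, beside 7.18%. DESeq2 called 0 of 10 members and 1.17% of the 19439 genes for which it gave an adjusted p, and edgeR without the block on the mouse 0 of 10 and 0.0139%. All 10 fitted log2 fold changes were above 0, as were those of 11122 of the 21526 genes tested. The median of the members was 0.40, beside 0.01 over all genes tested.

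B2m encodes the light chain that all class I molecules share. Its level was 407 to 800 CPM at 24 months (median 646) and 439.6 to 2337 CPM at 30 months (median 792). The lowest value at 24 months and the second highest at 30 months (1159 CPM) came from mouse 21, the highest from mouse 50, and the groups overlapped. The log2 fold change was 0.41 ± 0.31 (SE, n = 8; adjusted p = 0.608, edgeR), B2m was higher in 5 of 8 mice, and the exact two-sided sign-flip test over the within-mouse changes gave p = 0.3125. The smallest p that 8 mice allow in this test is 0.00781.

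H2-K1, the K heavy chain, had 372 to 812 CPM at 24 months (median 657) and 444 to 2163 CPM at 30 months (median 739). Mice 21 (1799 CPM) and 50 (2163 CPM) were the highest at 30 months, the next being mouse 29 (999 CPM), while mouse 43 had 762 CPM at 24 months and 444 CPM at 30 months. The log2 fold change was 0.52 ± 0.33 (SE; adjusted p = 0.545, edgeR), with higher values in 6 of 8 mice. H2-D1, the D heavy chain, had 339.9 to 544 CPM at 24 months (median 499.9) and 367 to 1582 CPM at 30 months (median 530.2). The order of the mice was alike, with 944 CPM in mouse 21 and 1582 CPM in mouse 50 at 30 months. Its log2 fold change was 0.40 ± 0.26 (SE; adjusted p = 0.556, edgeR) and 4 of 8 mice were higher. H2-T23, whose product presents leader peptides to NK cell receptors, had 69.7 to 94.8 CPM at 24 months (median 86.2) and 70.2 to 316 CPM at 30 months (median 90.6). Beside mice 21 (173 CPM) and 50 (316 CPM), mouse 29 had 134 CPM at 30 months, and the other 5 mice stayed between 70.2 and 92.8 CPM. Its log2 fold change was 0.41 ± 0.25 (SE; adjusted p = 0.529, edgeR), although only 3 of 8 mice were higher and the median within-mouse change was -0.05.

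**Figure D1:**
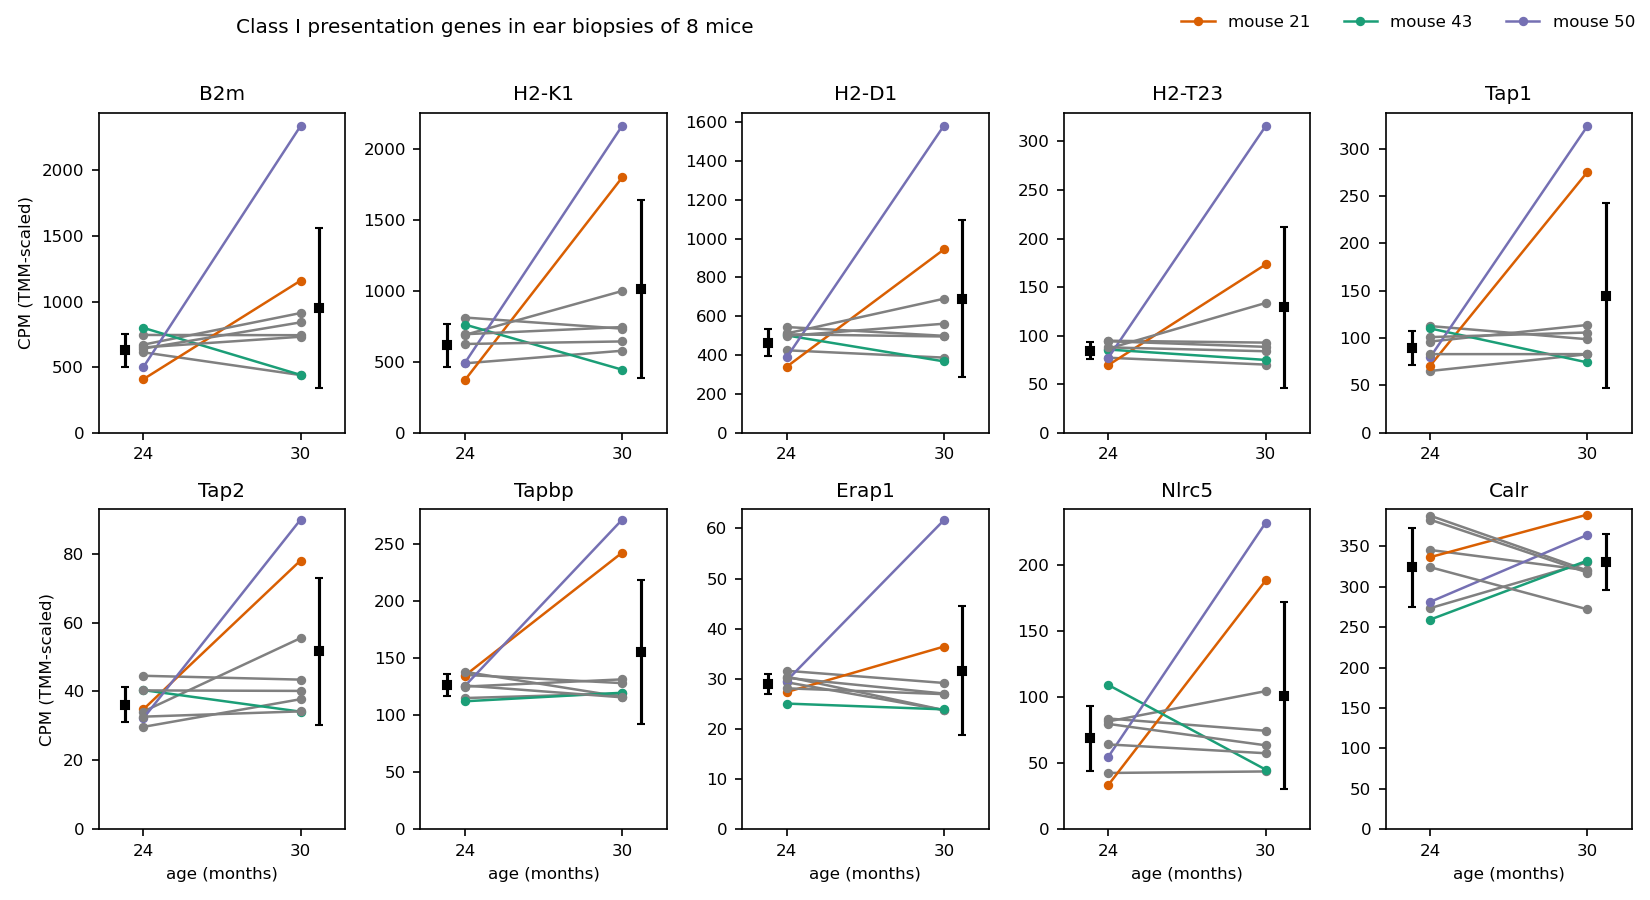
Level of each of the 10 genes in CPM (TMM-scaled, linear axes from 0) at 24 and 30 months. Each line is 1 mouse, mice 21, 43 and 50 are coloured, and the black squares with bars are the mean ± SD of 8 mice. In all 10 panels mice 21 and 50 are the highest at 30 months, B2m reaching 2337 CPM in mouse 50. Only Calr shows both ages over nearly the same range, with 389 CPM in mouse 21, 364 CPM in mouse 50 and 332 CPM in mouse 43.

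Tap1 and Tap2 encode the subunits of the peptide transporter. Tap1 had 65.3 to 113 CPM at 24 months (median 89.7) and 74.3 to 324 CPM at 30 months (median 102). The 30-month values of mice 21 (276 CPM) and 50 (324 CPM) were more than any other library's, the next being 114 CPM in mouse 29. Its log2 fold change was 0.46 ± 0.29 (SE; adjusted p = 0.544, edgeR), with 6 of 8 mice higher. Tap2 had 29.7 to 44.6 CPM at 24 months (median 34.5) and 34.1 to 89.9 CPM at 30 months (median 41.8). The log2 fold change of Tap2 was 0.43 ± 0.19 (SE), with an unadjusted p of 0.0449 and an adjusted p of 0.402 (edgeR), and it was higher in 5 of 8 mice. Tap2 had the smallest p of the members in both tests, the exact sign-flip p being 0.0938.

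Tapbp, the gene of tapasin, which bridges the transporter and the heavy chain, differed less. It had 112 to 138 CPM at 24 months (median 126) and 116 to 272 CPM at 30 months (median 124). Mice 21 (243 CPM) and 50 (272 CPM) were again apart, and the other 6 stayed between 116 and 131 CPM at 30 months. The log2 fold change was 0.21 ± 0.15 (SE; adjusted p = 0.583, edgeR). Erap1 had 25.0 to 31.6 CPM at 24 months (median 29.5) and 23.7 to 61.7 CPM at 30 months (median 27.0). It was lower at 30 months in 6 of 8 mice, and only mouse 50 (61.7 CPM) and mouse 21 (36.4 CPM) lay above the range of the first biopsies. Its log2 fold change was 0.05 ± 0.15 (SE; adjusted p = 0.908, edgeR), and it was -0.09 without mouse 50. Calr, a calcium-binding chaperone of the endoplasmic reticulum that serves many glycoproteins, had 259 to 388 CPM at 24 months (median 330.4) and 272 to 389 CPM at 30 months (median 325). Its groups covered nearly the same range, with a log2 fold change of 0.04 ± 0.10 (SE; adjusted p = 0.893, edgeR) and 4 of 8 mice higher. Without mouse 50 the Calr value was -0.01, and without mouse 43 it was also just below 0.

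Nlrc5, the activator of class I genes, spread more than any other member. It had 33.6 to 109 CPM at 24 months (median 71.9) and 43.7 to 232 CPM at 30 months (median 69.0). Mouse 21 had the lowest value of all libraries at 24 months (33.6 CPM) and the second highest at 30 months (189 CPM), and mouse 43 the highest at 24 months (109 CPM) and nearly the lowest at 30 months (45.1 CPM). The SD of its within-mouse log2 changes was 1.27, beside 1.09 for H2-K1, 1.01 for B2m and 0.29 for Calr. The log2 fold change of Nlrc5 was 0.34 ± 0.39 (SE; adjusted p = 0.732, edgeR), with 4 of 8 mice higher and a median within-mouse change of -0.06.

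**Figure D2:**
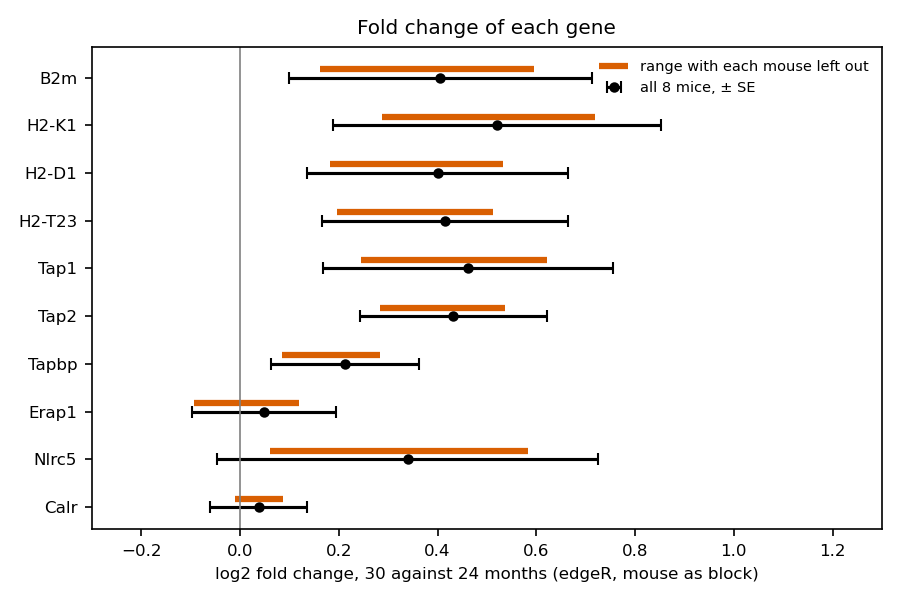
Fitted log2 fold change at 30 against 24 months for each gene (black point, bar ± SE, edgeR with a term for each mouse) and the range of the fitted value when each mouse is left out in turn (orange bar). The points run from 0.04 for Calr to 0.52 for H2-K1, and the orange bars of Erap1 and Calr cross 0.

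Leaving out single mice moved the fitted values without any member being called. The value of B2m ran from 0.16 without mouse 50 to 0.60 without mouse 43, that of Tap1 from 0.24 without mouse 50 to 0.62 without mouse 43, and that of H2-K1 from 0.29 without mouse 21 to 0.72 without mouse 43. For Nlrc5 the range was 0.06 without mouse 21 to 0.58 without mouse 43. The lowest value of 8 members was reached without mouse 50 and that of the other 2 without mouse 21.

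The changes were also read mouse by mouse. In mouse 50, 9 of 10 members had a log2 change above 1, beside 7.9% of all genes, and in mouse 21, 7 of 10, beside 5.95%. In mouse 50 the changes were 2.23 for B2m, 2.13 for H2-K1, 2.08 for Nlrc5, 2.03 for both H2-D1 and H2-T23, 2.02 for Tap1, 1.48 for Tap2, 1.11 for Tapbp, 1.06 for Erap1 and 0.37 for Calr. In mouse 21 the order was led by Nlrc5 (2.49) and H2-K1 (2.28), followed by Tap1 (1.96), B2m (1.51) and H2-D1 (1.47), and ended with Erap1 (0.41) and Calr (0.21). Both mice thus had the heavy chains, light chain, transporter and activator at higher levels in the second ear, and calreticulin differed least. In mouse 43, Nlrc5 changed by -1.28, B2m by -0.86, H2-K1 by -0.78 and Tap1 by -0.57, and only Nlrc5 was below -1, beside 5.73% of all genes. In mouse 29, Tap2 (0.70), H2-T23 (0.62) and H2-K1 (0.53) were higher, and Tapbp (-0.25) and Erap1 (-0.30) lower. In mice 13, 14, 64 and 75 all changes lay between -0.48 and 0.39. There was no replicate biopsy of an ear at either age, so a mouse's own change has no error of its own.

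**Figure D3:**
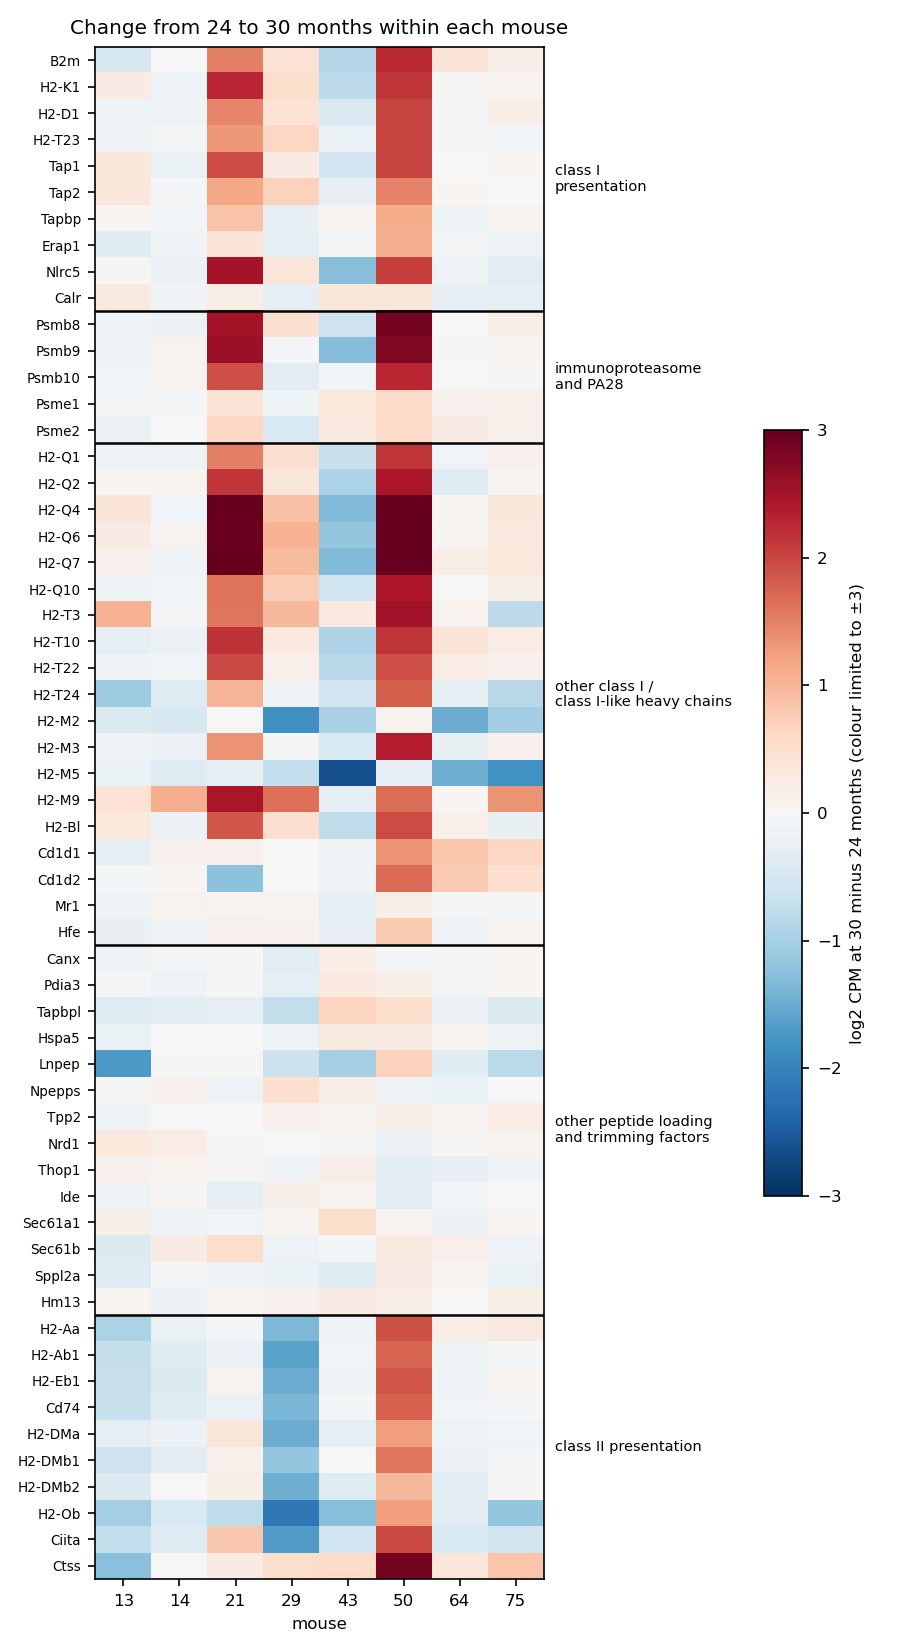
Log2 CPM at 30 minus 24 months (colour, limited to ±3) for the 10 genes, the immunoproteasome, other heavy chains, other loading and trimming factors and class II genes (rows) in each mouse (columns). The columns of mice 21 and 50 are red for most class I and immunoproteasome rows, the loading and trimming rows are pale in both, and the class II rows are red mainly in mouse 50.

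The likeness of each member to the mean change of the 10 was described with Pearson's r over the 8 mice, to which the member itself contributes and in which mice 21 and 50 weigh most. It was 0.99 for H2-D1, 0.99 for Tap1, 0.98 for H2-K1, 0.97 for H2-T23 and Nlrc5, 0.96 for Tap2, 0.95 for B2m, 0.90 for Tapbp, 0.87 for Erap1 and 0.40 for Calr. The 6 other genes most like that mean were Gm8909 (0.997), Gm8815 (0.997), Psmb8 (0.996), H2-Q5 (0.994), Snhg18 (0.992) and Ogfr (0.989). H2-Q5 is annotated as a class I gene and Psmb8 is a subunit of the immunoproteasome. Their sizes differed, since the change in mouse 50 was 3.09 for H2-Q5 and 0.66 for Snhg18.

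The relation between the change of Nlrc5 and the changes of the other 9 members was tested over the 6 mice left when mice 21 and 50, which form a cluster of their own, are set aside. No pooled correlation over 8 mice is given for that reason. H2-K1 had the highest Pearson coefficient (Pearson's r = 0.96, exact permutation p = 0.0111, adjusted over the 9 relations 0.1, and Spearman's rho = 0.83, exact permutation p = 0.0583, adjusted 0.175). For Tap1 the values were r = 0.89 (exact permutation p = 0.0236, adjusted 0.106) and rho = 0.77 (exact permutation p = 0.103, adjusted 0.231). Tap2 had the highest Spearman coefficient, with r = 0.85 (exact permutation p = 0.0361, adjusted 0.108) and rho = 0.94 (exact permutation p = 0.0167, adjusted 0.15). The Pearson coefficients of B2m, H2-D1 and H2-T23 lay between 0.64 and 0.79, and their Spearman coefficients between 0.49 and 0.60. Both coefficients were negative for Tapbp (r = -0.69, rho = -0.83), Erap1 (r = -0.66, rho = -0.54) and Calr (r = -0.59, rho = -0.49). None of the 9 relations passed after adjustment, the smallest p that 6 mice allow being 0.00278, and mouse 43 lies far from the other 5, too few for the relation to be given without it.

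**Figure D4:**
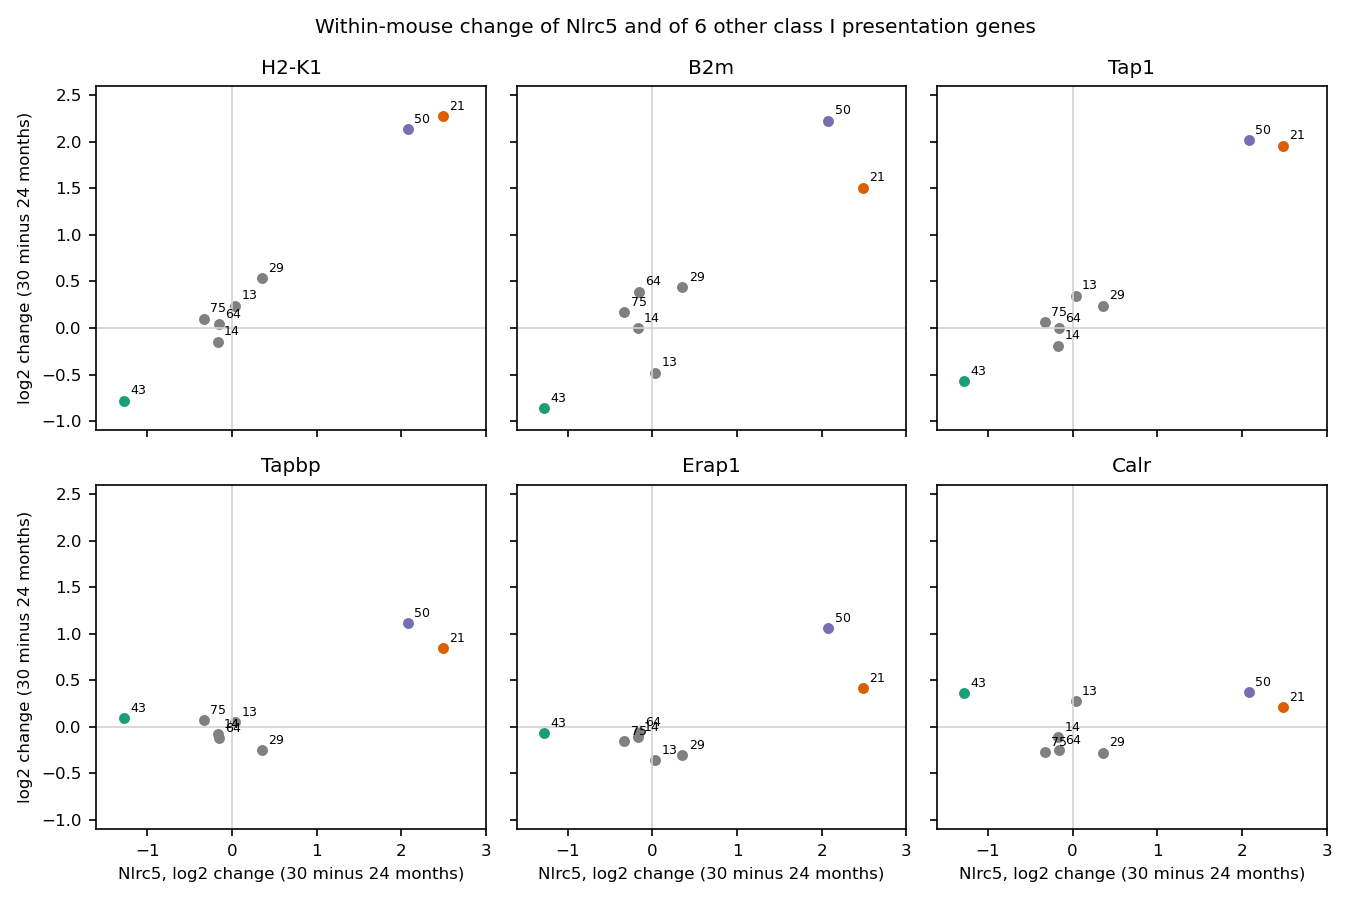
Within-mouse log2 change of Nlrc5 (x axis) against that of 6 other members (y axis), 1 point per mouse with its number. For H2-K1, B2m and Tap1 mouse 43 lies at the lower left and mice 21 and 50 at the upper right, while for Calr the points spread along 0, from -0.28 to 0.37.

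The other genes of the pathway were read from lists of related genes, none of whose members passed the adjusted threshold. Of the 5 immunoproteasome and PA28 genes, which make the protease that favours class I peptides, 5 had a fitted value above 0 (median 0.45), and 0 had an unadjusted p under 0.05. Psmb8 had 21.1 ± 3.92 CPM at 24 months and 43.01 ± 39.1 at 30 months (SD, n = 8), with changes of 2.50 in mouse 21, 2.87 in mouse 50 and -0.61 in mouse 43. Its log2 fold change was 0.59 ± 0.40 (SE; adjusted p = 0.563, edgeR). Psme1, a subunit of the PA28 cap, changed by 0.41 in mouse 21 and by 0.57 in mouse 50, and its log2 fold change was 0.17 ± 0.08 (SE; adjusted p = 0.433, edgeR).

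Of the 19 other class I and class I-like heavy chains, 15 had a fitted value above 0 (median 0.40). At an unadjusted p under 0.05 (edgeR), 1 was higher, beside 4.86% of all genes, and 2 were lower, beside 7.18%. H2-M9 was higher in 7 of 8 mice and its log2 fold change was 1.15 ± 0.30 (SE; unadjusted p = 0.00323, adjusted p = 0.248, edgeR), at 0.590 to 1.11 CPM at 24 months and 0.670 to 4.18 CPM at 30 months. H2-M5 was lower in 8 of 8 mice (log2 fold change -0.94 ± 0.28, SE; unadjusted p = 0.00716, adjusted p = 0.284, edgeR), and mice 43 (-2.64) and 75 (-1.81) had the largest differences. H2-M2 was lower in 6 of 8 mice (-0.76 ± 0.22, SE; unadjusted p = 0.00594, adjusted p = 0.279, edgeR). The widest changes in mice 21 and 50 were those of the Q region genes H2-Q4 (3.13 and 3.21), H2-Q6 (2.93 and 3.44) and H2-Q7 (3.14 and 3.44), named after their values were seen, of which 34.9% to 39.2% of the 50-base words occur in other genes. Mr1 and Hfe, heavy chain-like genes that do not present peptides and were also named after their values were seen, changed by 0.09 and 0.16 in mouse 21 and by 0.19 and 0.78 in mouse 50.

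Of the 14 other loading and trimming factors, 8 had a fitted value above 0 (median 0.01), and 0 had an unadjusted p under 0.05. Ide and Nrd1, metalloproteases of the cytosol and the highest of the list in CPM, had log2 fold changes of -0.06 ± 0.07 and 0.06 ± 0.07 (SE; adjusted p = 0.738 for both, edgeR). Canx and Pdia3, the calnexin and ERp57 genes of the loading complex, were named after their values were seen and changed by -0.03 and -0.05 in mouse 21 and by -0.06 and 0.21 in mouse 50. Tapbpl, a relative of tapasin that edits class I peptides, also named after its values were seen, changed by -0.30 and 0.54.

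Of the 20 genes of class I transcription and interferon gamma signalling, 15 had a fitted value above 0 (median 0.09). At an unadjusted p under 0.05 (edgeR), 1 was higher, beside 4.86% of all genes, and 2 were lower, beside 7.18%. Ifng, the interferon gamma gene, had at most 0.0714 CPM in any 24-month library. At 30 months it had 0.810 CPM in mouse 21 and 5.23 CPM in mouse 50, and at most 0.0689 CPM in the other 6 mice, where 3 libraries held no count (unadjusted p = 0.0104, adjusted p = 0.297, edgeR). Nfya, a subunit of the factor that binds the CCAAT box, had a log2 fold change of -0.26 ± 0.08 (SE; unadjusted p = 0.0105, adjusted p = 0.298, edgeR), and Jak1, a kinase of interferon receptors, one of -0.14 ± 0.06 (SE; unadjusted p = 0.0418, adjusted p = 0.396, edgeR). The transcription factor gene Irf1 was higher in mice 21 and 50 (1.87 and 2.94), and the promoter-binding factor gene Rfx5 changed by -0.25 and 0.17, both named after their values were seen.

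All 28 interferon-stimulated genes had a fitted value above 0 (median 0.68), 1 with an unadjusted p under 0.05, beside 4.86% of all genes higher. Rsad2, the gene of the antiviral protein viperin, was higher in 7 of 8 mice and its log2 fold change was 1.23 ± 0.48 (SE; unadjusted p = 0.0274, adjusted p = 0.356, edgeR). In mouse 21 as in mouse 50, 27 of 28 had a log2 change above 1, beside 5.95% and 7.9% of all genes. The median changes were 3.01 and 3.49, beside 1.39 and 2.02 for the class I members. The summed level of the list was 191 to 331 CPM at 24 months and 149.5 to 3183 CPM at 30 months. In mouse 43 the median was -0.33 and 2 of 28 were higher. The part of interferon-stimulated genes in the class I values was not tested.

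Class II presentation, which serves CD4 T cells and is driven by the activator CIITA, did not follow the class I genes in mouse 21. Of its 11 genes 10 were tested, and 1 had a fitted value above 0 (median -0.13). H2-Ob, a subunit of the class II regulator DO, had a log2 fold change of -0.73 ± 0.33 (SE; unadjusted p = 0.0465, adjusted p = 0.407, edgeR). The median change of the list was 1.76 in mouse 50, 0.13 in mouse 21 and -1.47 in mouse 29, where the class I median was 0.39. The summed class II level was 1163 to 1837 CPM at 24 months and 553 to 4364 CPM at 30 months.

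**Figure D5:**
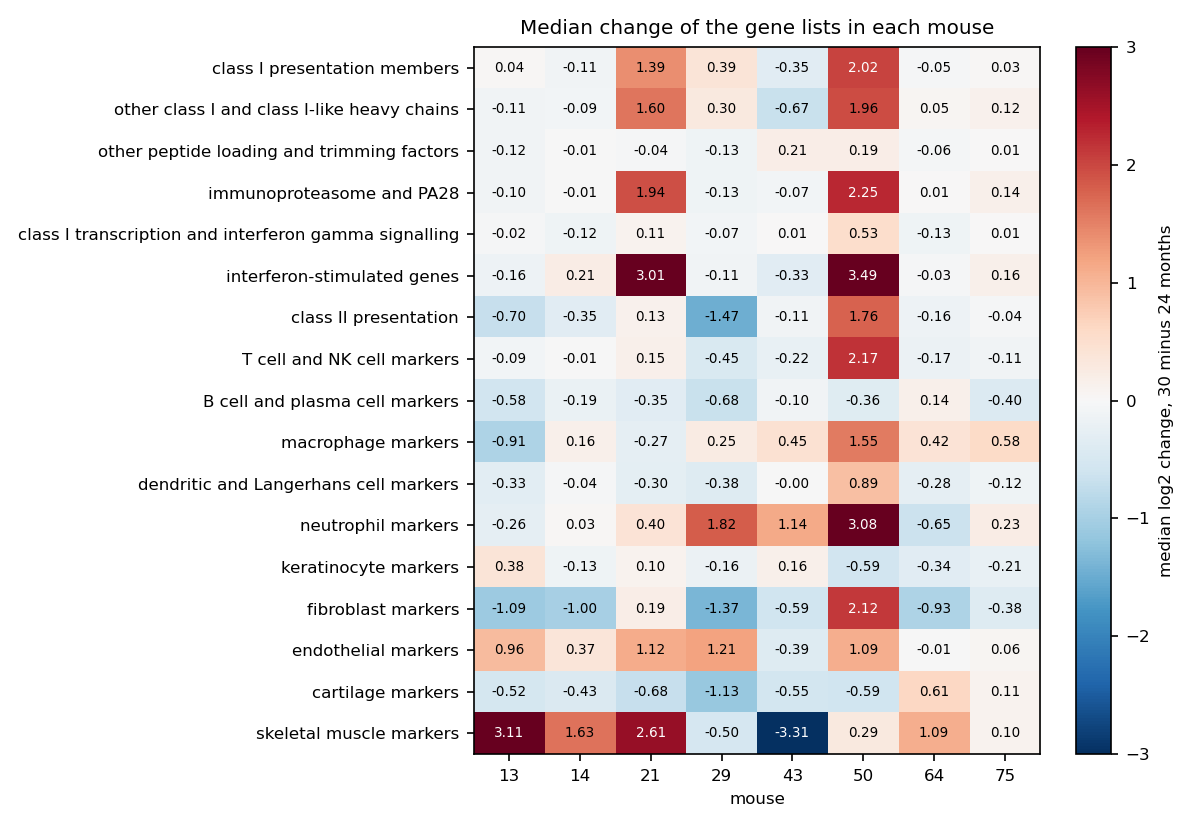
Median log2 change, 30 minus 24 months, of each gene list (rows) in each mouse (columns), with colour limited to ±3. The class I row holds 1.39 in mouse 21 and 2.02 in mouse 50, and the rows of interferon-stimulated genes and of the immunoproteasome are high in the same columns, while the rows of T cell, macrophage and class II genes are highest in mouse 50, at 2.17, 1.55 and 1.76.

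Markers of several cell types differed in mice 21 or 50, and some also differed in other mice, such as mouse 13. In mouse 13 the class I members went both ways, from -0.48 for B2m to 0.35 for Tap1. Of 19 T cell and NK cell markers 17 were tested and 16 of them were higher in mouse 50 (median 2.17), while in mouse 21 11 were higher (median 0.15). Their summed level was 197 to 234 CPM at 24 months and 99.3 to 509 CPM at 30 months, where mouse 50 had 509 CPM and mouse 21 229 CPM. Cd8a, the receptor partner of class I, named after its values were seen, had 30.4 CPM in mouse 50 and 0.512 CPM in mouse 21 at 30 months, and at most 0.706 CPM in every other library. Trdc, a chain of the γδ T cell receptor, was lower in 8 of 8 mice (log2 fold change -0.33 ± 0.14, SE; unadjusted p = 0.0351, adjusted p = 0.379, edgeR). The summed level of the 12 macrophage markers was 757 to 1247 CPM at 24 months and 629 to 2437 CPM at 30 months. Mouse 50 had 2437 CPM and mouse 21 837 CPM, and Lyz2 and Csf1r changed by 1.47 and 1.14 in mouse 50 and by -0.21 and -0.59 in mouse 21. The macrophage median was -0.91 in mouse 13 and 0.58 in mouse 75. The median change of the 6 fibroblast markers was 2.12 in mouse 50 and 0.19 in mouse 21. In the other mice it lay between -1.37 (mouse 29) and -0.38 (mouse 75). The 8 endothelial markers had median changes of 1.12 in mouse 21, 1.09 in mouse 50, 1.21 in mouse 29 and -0.39 in mouse 43. In mouse 13, where the class I median was 0.04, theirs was 0.96, and it was 0.37, -0.01 and 0.06 in mice 14, 64 and 75. Their summed level was 129.8 to 179 CPM at 24 months and 135 to 347 CPM at 30 months. No marker of these lists was at 0 in all libraries. The 8 skeletal muscle markers had a median change of 2.61 in mouse 21 and 0.29 in mouse 50. It was highest in mouse 13 (3.11), and it was 1.63 in mouse 14 and 1.09 in mouse 64. In mouse 43 it was -3.31, with a summed level of 10115 CPM at 24 months, the highest of all libraries, and 1389 CPM at 30 months. The 5 neutrophil markers tested had a median change of 3.08 in mouse 50 and 0.40 in mouse 21. The 6 B cell and plasma cell markers tested had median changes of -0.36 and -0.35 in these mice. The part of these cell types in the class I values was not tested.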

How the data were processed

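RNA from ear skin was made into libraries with a TruSeq kit that does not mark strand and sequenced as single 50-base reads. The submitters' processing notes name CASAVA 1.8.4, TopHat2 2.1.0, HTSeq 0.6.1p1 and the build mm10 (GRCm38). The authors deposited whole-number counts of reads on each gene without normalization, 1 column per library. Whether counting used strand is not given in the sources used here. The 5 summary lines that name no gene (18.7% to 21.1% of a library) stayed out of library sizes and tests. Of the 45706 identifiers, 45143 were in GENCODE M21, and the others held 0.130% of the counts.

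The test of the counts used edgeR 4.0.16 under R 4.3.3 (TMM, filterByExpr, quasi-likelihood test, 21526 genes) with a term for each mouse, as both libraries of a number come from the same animal. The correlation of the deviations from the age means had a median of -0.02 for libraries of 1 mouse and of -0.01 for libraries of different mice. Adjusted p-values are Benjamini-Hochberg values over all genes tested, with a threshold of 0.05. Replicates are separate animals. Within-mouse changes are differences of log2 CPM with a prior count of 2, tested with a two-sided exact sign-flip test over 256 sign patterns. In counts simulated for this comparison with 21526 genes, edgeR called 144 of 200 genes changed 2-fold, with the right sign for all 144, besides 14 of the unchanged genes. The changed genes were drawn at random, changed alike in every mouse and varied independently of each other. The share called therefore does not show how often a 2-fold change of the members would be called. The SD of their within-mouse log2 changes reached 1.27 (Nlrc5). List sums, exact tests and correlations used scipy 1.17.1, numpy 2.4.6 and pandas 2.3.3 (Python 3.11.15).

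The members, the 17 gene lists and the tests were chosen with earlier results of these data known. The text names the members, up to 4 genes of each other list with an unadjusted p under 0.05 or else the 2 with the highest mean CPM, and the 6 genes most like the members' mean change. Some genes within this rule are not reported here. Other genes were named after their values were seen, as stated there. The relation with Nlrc5 was planned over 8 mice and is given over 6, without the 2 whose Nlrc5 change lay farthest from the median. As alternatives, the Wald test of DESeq2 1.42.0, its size factors within edgeR, no low-count filter, no block, age in months as a covariate and each mouse left out were run. Promoter windows are RefSeq sequences of GRCm38.p6. Motif positions count from the RefSeq start of transcription.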

Additional observations from a re-analysis of the deposited data

Results flagged for a closer look

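Of 30 sets of 8 libraries (10 genes in CPM at 24 months, at 30 months, and as within-mouse changes), 3 held a library whose gap to the nearest other exceeded Dixon's 95% critical value for 8 samples as a share of the whole range, and about 1.5 are expected by chance. All 3 were the 30-month library of mouse 50. The 1.5 assumes normally distributed values, and these genes varied together, so the 3 do not count as separate cases. B2m had 2337 CPM there and 1159 CPM in the nearest library (a gap of 0.621 of the range). H2-T23, the Qa-1 heavy chain, had 315.7 CPM beside 173 CPM (0.580). Erap1, the trimming peptidase, had 61.67 CPM beside 36.4 CPM (0.666). In each case the nearest library was that of mouse 21. For H2-K1, Tap1 and Nlrc5 the value of mouse 50 was no such outlier, since mouse 21 lay close to it. The reason was not tested.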

How the results depend on the processing

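No member was called in any of the 13 alternative fits, and 473 of the 489 recomputed values were labelled as unchanged. For changes and coefficients this means the same direction and the same side of the threshold. For counts of genes it means an equal or similar count, and most counts for the gene lists were 0 in both settings. The number of genes at an adjusted p under 0.05 was 0 with edgeR, 228 with DESeq2, 3 without the mouse block (0.0139% of genes) and 0 with any mouse left out. DESeq2 called 1 dendritic cell marker (Cd209a), 1 keratinocyte marker (Krt1), 1 endothelial marker (Emcn) and 1 cartilage marker (Col2a1), where edgeR called 0. The cause was not tested. Without the pairing of the libraries by mouse, the fitted value was 0.60 for B2m, 0.72 for H2-K1, 0.69 for Tap1 and 0.56 for Nlrc5, and no other call changed. As each mouse was left out, the fitted value of Erap1 ran from -0.093 (without mouse 50) to 0.119 and that of Calr from -0.0097 (without mouse 50) to 0.0881, also below 0 without mouse 43. Their mean within-mouse changes ran from -0.0926 to 0.109 for Erap1 (below 0 without mice 21 or 50) and from -0.0100 to 0.0830 for Calr (below 0 without mice 43 or 50). The number of genes with an unadjusted p under 0.05 that were higher was 1047, and it was 1708 without the block and 1927 without mouse 43. The number that were lower was 1546, and 998 without mouse 21. DESeq2 size factors moved the median of all genes by 0.01 (log2). Leaving out a mouse from the 6 in the relation with Nlrc5 would leave 5, so that alternative was not run. In simulated counts of this size edgeR called 144 of 200 randomly drawn genes changed 2-fold in every mouse, a share that does not carry over to the members. With 1 library per ear, a single mouse's change has no error.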

Other observations

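Markers of dendritic and Langerhans cells, which present antigen in skin, differed in both directions. Of 10 tested, 3 had a fitted value above 0 (median -0.04), 1 was higher (beside 4.86% of all genes) and 2 were lower (beside 7.18%) at an unadjusted p under 0.05, and none passed after adjustment. Cd209a, a lectin of dermal dendritic cells, was 14.5 ± 4.48 CPM at 24 months and 7.73 ± 4.93 at 30 months (SD, n = 8) and lower in 7 of 8 mice (log2 fold change -1.09 ± 0.26, SE; adjusted p = 0.222, edgeR). Cd207, the Langerhans cell lectin langerin, was 15.6 ± 2.79 and 10.8 ± 4.03 CPM and lower in 7 of 8 mice (-0.61 ± 0.18, SE; adjusted p = 0.279, edgeR). Ccr7, the receptor that guides dendritic cells to lymph nodes, was higher in 8 of 8 mice (1.57 ± 0.46, SE; adjusted p = 0.279, edgeR), with 10.96 CPM in mouse 50 at 30 months and 1.71 CPM in mouse 21.

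Markers of structural cells were counted the same way, beside 4.86% of all genes higher and 7.18% lower at an unadjusted p under 0.05, and none passed the adjusted threshold with edgeR. Of 8 endothelial markers, 5 were higher at an unadjusted p under 0.05 (median log2 fold change 0.54), although 1 of 8 was higher in mouse 43 and 4 of 8 in mice 64 and 75, led by Emcn, a vessel sialomucin (0.86 ± 0.21, SE; adjusted p = 0.224, edgeR), Kdr (0.51 ± 0.16), Tie1 (0.61 ± 0.21) and Cldn5 (0.57 ± 0.21). Of 5 cartilage markers tested, 4 were lower (median -0.61), led by the collagen gene Col2a1, which was lower in 8 of 8 mice (-0.64 ± 0.11, SE; unadjusted p = 0.000145, adjusted p = 0.141, edgeR), followed by Cnmd (-0.88 ± 0.33), Comp (-0.35 ± 0.13) and Col9a1. Of 9 keratinocyte markers, 1 was higher and 2 were lower (median -0.19). Krt1, a keratin of differentiating keratinocytes, was higher in 8 of 8 mice (1.01 ± 0.25, SE; adjusted p = 0.222, edgeR), while Krt10 (-0.36 ± 0.13) and Trp63 (-0.26 ± 0.09) were lower. The 6 B cell and plasma cell markers tested had a median of -0.26, and Sdc1, also a keratinocyte gene, was lower in 7 of 8 mice (-0.23 ± 0.08, SE; adjusted p = 0.333, edgeR). Of 5 neutrophil markers (median 0.50, with Csf3r and Cxcr2 highest in CPM), 6 fibroblast markers (median -0.53, Dcn and Col1a2), 12 macrophage markers (median 0.25) and 8 skeletal muscle markers (median 0.75, Myh1 and Ttn), 0 had an unadjusted p under 0.05.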
